A study of Mus musculus with 2 samples.

Results

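The genes described here are the cell adhesion and axon guidance families that carried macroH2A1 peaks in embryonic stem cells of the mouse. They were chosen by name: a peak was counted when its entry in the deposited list gave a single gene symbol that began with 1 of 19 prefixes (Cdh, Pcdh, Cntn, Ctnn, Nrxn, Nlgn, Lrrtm, Lrrc, Sema, Plxn, Epha, Ephb, Efna, Efnb, Robo, Slit, Unc5, Ntn or Itg). This gave 39 peaks at 32 genes, out of 2560 peaks in the list. The cells were of the established line E14, untreated and grown in medium with leukemia inhibitory factor at 1000 U/ml. The study has 2 libraries from these cells, 1 precipitated with an antibody raised against part of macroH2A1 and 1 with IgG. The list was taken to be that of the macroH2A1 library from the name it was deposited under, and no values of the IgG library were analysed here. There are no replicates, no read count or score is given per peak, and the depth is unknown. Every value below therefore describes this 1 list, and no test was made of any difference.

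MacroH2A1 is an H2A variant with a large additional globular domain, and it is best known from silent chromatin such as the inactive X chromosome. Cadherins and protocadherins are calcium-dependent proteins by which a cell holds on to its neighbours, and catenins tie cadherins to the actin skeleton. Contactins, neurexins, neuroligins and the Lrrtm proteins join nerve cells, many of them across the synapse. Semaphorins, Slits, netrins and ephrins are cues for growing axons, read by plexins, Robo, Unc5 and Eph receptors, and integrins bind cells to the extracellular matrix. Many of these genes are known for their roles in the developing nervous system. The cell type could not be checked against marker genes, because no expression was measured. The prefix Lrrc joins genes that share a leucine-rich repeat and no common function, and a few symbols, such as Cntnap5a, only begin with a prefix.

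A promoter sequence is shown for Cdh23, 1 of the 2 member genes with a peak within 1000 bp of the start; that of the other, Pcdhb5, is not shown here. Cdh23 encodes a cadherin of the tip links of inner ear hair cells. These are the 250 bases before its start in RefSeq (build GRCm38.p6, minus strand, chr10:60696491-60696740), written 5′ to 3′ with each CG in capitals:
Cdh23: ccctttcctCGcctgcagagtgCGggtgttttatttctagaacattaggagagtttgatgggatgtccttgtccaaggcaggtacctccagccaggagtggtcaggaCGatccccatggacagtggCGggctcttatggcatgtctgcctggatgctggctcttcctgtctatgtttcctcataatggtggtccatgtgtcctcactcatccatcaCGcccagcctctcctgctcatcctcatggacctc

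The stretch held 5 CG, against a median of 6 over the 32851 promoter windows of the table cut to the same length. It held neither TATAAA nor CCAAT on either strand, motifs that 12.4% and 33.8% of all these windows held. The Cdh23 peak (chromosome 10, 60156700 to 60158250, 1551 bp, in the mouse build mm9 that all peak positions below use) began 0.988 kb past the gene start, inside the gene. It thus did not reach the promoter window. Deposited and RefSeq lengths of Cdh23 were alike (393.743 and 393.766 kb). The sequence of the peak itself is not shown, since no mm9 genome was used here.

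The first question was which families carried peaks, and how many of their genes. Of the 304 protein-coding genes with such a prefix in the RefSeq gene table (assembly GRCm38.p6), 32 had an assigned peak, or 10.5% (95% Wilson interval 7.56 to 14.5%, for counting error only). Over all 21631 protein-coding genes the share was 5.76%. Genes for which the list gives no symbol could not be counted in either share. All 32 member genes were found in the gene table on the same chromosome.

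The synaptic adhesion genes had the highest share by role, 5 of 23 (21.7%). Contactins and contactin-associated genes had peaks at 3 of 13, neurexins at 1 of 3 and Lrrtm genes at 1 of 4, while neuroligins had none of 3. Median RefSeq lengths were 401 kb for the Cntn prefix, 1060 kb for neurexins, 96.2 kb for Lrrtm genes and 22.2 kb for neuroligins. Of all protein-coding genes of 300 kb or longer, 18.7% had a peak. The shares by role were not adjusted for gene length and carry no interval. Guidance receptors had peaks at 5 of 33 (15.2%), made up of 3 of 9 EphA receptors, 1 of 9 plexins and 1 of 4 Robo genes. The 5 EphB receptors and the 6 genes with the prefix Unc5 had none. Guidance ligands had peaks at 6 of 43 (13.95%): 3 of 20 semaphorins, 1 of 5 A-type ephrins, 1 of 3 B-type ephrins and 1 of 9 genes with the prefix Slit, which also takes in the Slitrk genes. The 6 genes with the prefix Ntn had none under the single-symbol rule.

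Cell-cell adhesion genes had peaks at 11 of 106 (10.4%). Cadherins had 5 of 28 and catenin-prefixed genes 0 of 9. Among protocadherins the genes outside the clusters had peaks at 4 of 12 (Pcdh10, Pcdh15, Pcdh17 and Pcdh18). The clustered genes had peaks at 2 of 57 (Pcdha6 and Pcdhb5). Each peak was listed only under the gene with the nearest start, so a peak in a cluster is not counted for the neighbouring genes. These protocadherin shares were not adjusted for that or for gene length, and whether they differ was not tested. The Lrrc genes had 5 of 68 (7.35%). No peak was assigned to any of the 31 genes with the prefix Itg, which is the largest of the 6 families without a peak. At the share over all protein-coding genes, 5.76%, few of 31 genes would have a peak.

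**Figure D1:**
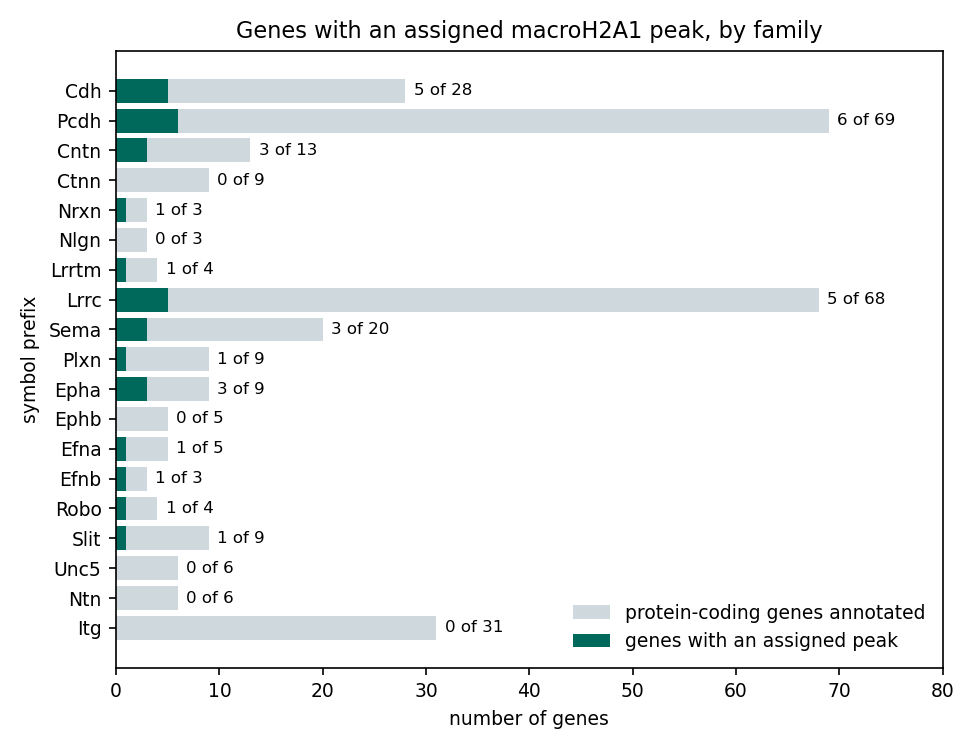
Number of protein-coding genes annotated for each symbol prefix (grey, RefSeq gene table) and number with an assigned macroH2A1 peak (green), with both counts beside each bar. Pcdh (6 of 69), Cdh (5 of 28) and Lrrc (5 of 68) hold the most genes with a peak, and Itg has 0 of 31.

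Length of the genes moved together with the share that had a peak. Among all protein-coding genes, 3.89% of those under 20 kb, 6.17% of those from 20 to 100 kb, 11.9% of those from 100 to 300 kb and 18.7% of those of 300 kb or longer had a peak. The family genes showed 5 of 97 (5.15%), 9 of 95 (9.47%), 7 of 68 (10.3%) and 11 of 44 (25%) in the same classes. The family share was therefore above that of all genes in 3 classes and below it in the class from 100 to 300 kb. The Wilson interval of the family share contained the share of all genes in each of the 4 classes. Of the family genes, 112 of 304 were 100 kb or longer, against 2427 of all 21631, and 18 of these 112 (16.1%) had a peak, against 13.4% of all genes of that length. Length classes were chosen after the data were seen.

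**Figure D2:**
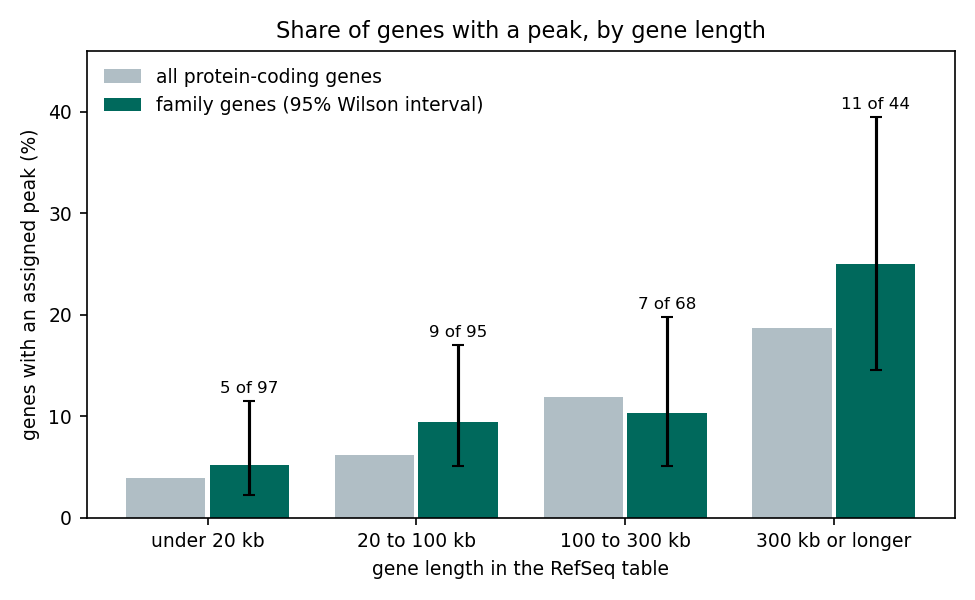
Share of genes with an assigned peak (vertical axis, percent) in 4 classes of RefSeq gene length, for all protein-coding genes (grey) and for family genes (green, error bars are 95% Wilson intervals, counts above). Both shares are lowest under 20 kb (3.89 and 5.15%) and highest at 300 kb or longer (18.7 and 25%).

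Where the peaks lay relative to their genes was the second question. Of the 39 peaks, 19 were upstream of the assigned gene (48.7%, Wilson interval 33.9 to 63.8%), 10 were inside it (25.6%, 14.6 to 41.1%) and 10 were downstream (25.6%). No peak overlapped a gene start or a gene end. The other 1518 peaks with a single symbol were 52.4% upstream, 21.3% inside and 24.8% downstream, with 13 of them covering a gene start (0.856%). The interval of each of the first 2 member shares contains the share of the other named peaks.

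Distances here are gaps between the start of a gene and the closest base of its peak. The median over the 39 peaks was 129.9 kb (exact order-statistic interval 58.3 to 279 kb), with quartiles at 33.1 and 326 kb. Peaks of the same gene were counted separately here. With only the nearest peak of each of the 32 member genes, the median was 87.0 kb. Over the other single-symbol peaks, each counted separately, the median was 26.2 kb, with quartiles at 9.22 and 74.1 kb. Peaks more than 100 kb from the start made up 23 of 39 (59.0%) here and 286 of 1518 (18.8%) among the others. Peaks within 10 kb made up 5 of 39 (12.8%), against 26.4%. Counted by gene, 18 of the 304 family genes (5.92%) had a peak beyond 100 kb, against 1.14% of all protein-coding genes. Within 10 kb of the start the shares were 5 of 304 (1.64%) and 1.69%, and for a peak inside the gene they were 10 of 304 (3.29%) and 1.38%.

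Member genes were also longer, with a median of 129.3 kb in the deposited coordinates (42.8 to 321 kb), against 29.5 kb for the 1280 other assigned genes with a single symbol. Length and distance were therefore set side by side. At genes under 20 kb the median distance was 20.5 kb over 9 member peaks and 16.01 kb over 625 others. From 20 to 100 kb the medians were 139.6 kb over 11 and 27.8 kb over 524, and from 100 to 300 kb they were 160.6 kb over 8 and 44.7 kb over 258. At genes of 300 kb or longer they were 130.9 kb over 11 and 82.5 kb over 111. Counted by peak, the member median was the higher in all 4 length classes. Under 20 kb, 3 of the 9 member peaks were those of Pcdh10, at 58.8, 147 and 1591 kb. Pcdh10 falls in that class by its deposited length of 14.8 kb, while its RefSeq length is 56.2 kb. Medians with 1 peak per gene were not computed by length class, so the order under 20 kb may not hold by gene. The share of peaks inside the gene did not keep 1 order over these classes: it was 11.1% of member peaks and 8.16% of the others under 20 kb, 9.09 and 26.0% from 20 to 100 kb, 12.5 and 30.6% from 100 to 300 kb, and 63.6 and 51.4% at 300 kb or longer. The first 3 of these member shares rest on 1 peak each. Because peaks were listed under the gene with the nearest start, a long distance should also mean that no other annotated start lay closer. That could be checked only against the genes in the list, where no member peak had a closer start. How isolated a gene is was not measured.

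**Figure D3:**
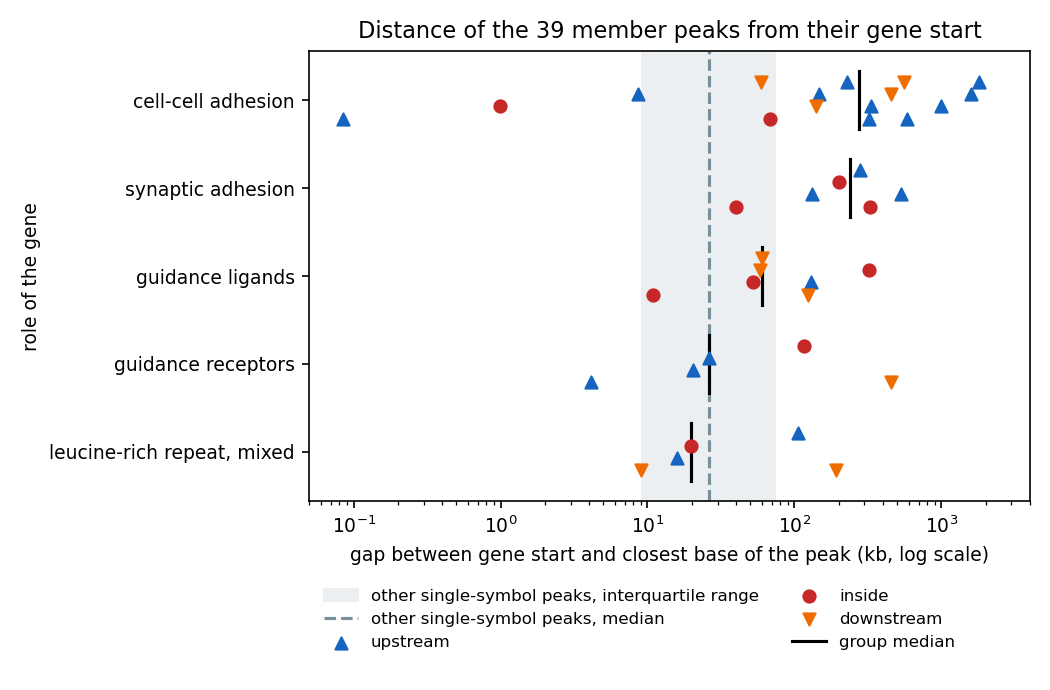
Gap between the gene start and the closest base of each of the 39 member peaks (horizontal log axis, kb), by the role of the gene, with the symbol giving the class of the peak, black ticks the median of each role, and the grey band and dashed line the quartiles (9.22 and 74.1 kb) and median (26.2 kb) of the other single-symbol peaks. The medians of the cell-cell adhesion (275 kb) and synaptic adhesion (240.0 kb) groups lie to the right of the band, and that of the guidance receptors (26.2 kb) lies on the dashed line.

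By role, the median distance was 275 kb over the 16 peaks of cell-cell adhesion genes, 240.0 kb over 6 at synaptic adhesion genes and 60.6 kb over 7 at guidance ligands. It was 26.2 kb over 5 at guidance receptors and 19.9 kb over 5 at Lrrc genes. The 16 cell-cell adhesion peaks lay at 11 genes, 4 of which had 2 or more peaks, so these genes weigh more in that median. Ranges were wide: cell-cell adhesion peaks ran from 0.085 kb (Pcdhb5) to 1.81 Mb (Pcdh17).

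The median width of the peaks differed little. The median was 1651 bp (1401 to 1801 bp) over the 39 peaks and 1551 bp over the other single-symbol peaks, and the extremes were 1051 and 2301 bp. All deposited starts and ends lie on a grid of 50 bp. The widest was the Robo3 peak at 2301 bp, followed by those of Lrrc8d and Efnb2, both 2201 bp. Peaks of 2001 bp lay at Cntnap5a, Efna5, Lrrc30 and Pcdha6. The narrowest, of 1051 bp, lay at Cntn4 and Lrrc7. The other single-symbol peaks had the same minimum of 1051 bp and ran up to 4351 bp.

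Of the 39 peaks, 3 were less than 5 kb away from the start of their gene. The nearest was upstream of Pcdhb5, a clustered protocadherin, and ended 0.085 kb before its start (chromosome 18, 37478250 to 37479950, 1701 bp). Pcdhb5 is 3.533 kb long. The Cdh23 peak described above was next. The third was upstream of Plxnb3, which encodes a plexin known as a receptor for Sema5a, at 4.14 kb (chromosome X, 70996400 to 70998300, 1901 bp). It is 1 of 26 peaks on chromosome X, out of 2560 in the list. Counts per chromosome were not set against chromosome size or copy number.

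Cadherins are the first group by role. Cdh9 and Cdh10, neighbouring genes on chromosome 15 for type II cadherins of the nervous system, had 2 peaks each. Those of Cdh9 were upstream, 332 and 585 kb from its start (16374600 to 16376100 and 16121550 to 16122650). Those of Cdh10 were downstream, 455.3 and 558.4 kb from its start and 261 and 364 kb past its end (19205400 to 19207250 and 19308450 to 19309650). In the 1.96 Mb between the 2 genes the list held 0 peaks, so that the 4 peaks flanked the pair on its outer sides. Cdh5, the cadherin of endothelial cells, had a peak 323 kb upstream (chromosome 8, 106301400 to 106302800). Cdh26 had 1 peak 82.8 kb past its end (chromosome 2, 178304900 to 178306350).

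Protocadherins outside the clusters held the most distant peaks. Pcdh10, which encodes a protocadherin of the nervous system (ENSMUSG00000049100), was the only member gene with 3 peaks. On chromosome 3 they lay 1.59 Mb upstream (43589100 to 43590900), 147 kb upstream (45033850 to 45035400) and 58.8 kb from the start on the downstream side (45241150 to 45242950). Their widths were 1801, 1551 and 1801 bp. Pcdh18 lies further along chromosome 3 and had 1 peak, 228 kb upstream (49789350 to 49791000). In the 4.35 Mb between Pcdh10 and Pcdh18 there were 4 peaks, the last Pcdh10 peak and 3 listed under genes without a symbol.

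Pcdh17 had 2 peaks on chromosome 14, 1.00 and 1.81 Mb upstream of its start (83840700 to 83841800 and 83029750 to 83030900), of 1101 and 1151 bp. The farther was the most distant of all 39. Of all single-symbol peaks in the list, 5 lay more than 1 Mb from their gene start, and 3 of these were the far Pcdh10 peak and the 2 Pcdh17 peaks. At this distance the assignment names only the nearest start.
Pcdh15, the partner of Cdh23 in the tip links, had 1 peak inside, 68.6 kb from its start (chromosome 10, 73353200 to 73355050). Pcdha6, a gene of the alpha cluster, had 1 peak 8.69 kb upstream (chromosome 18, 37116600 to 37118600). The Pcdha6 and Pcdhb5 peaks were 360 kb apart and each other's nearest peak in the list. Genes of the alpha cluster have their first exons in a row and share their last ones, so the assignment to Pcdha6 names the nearest listed start and not the only gene concerned.

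**Figure D4:**
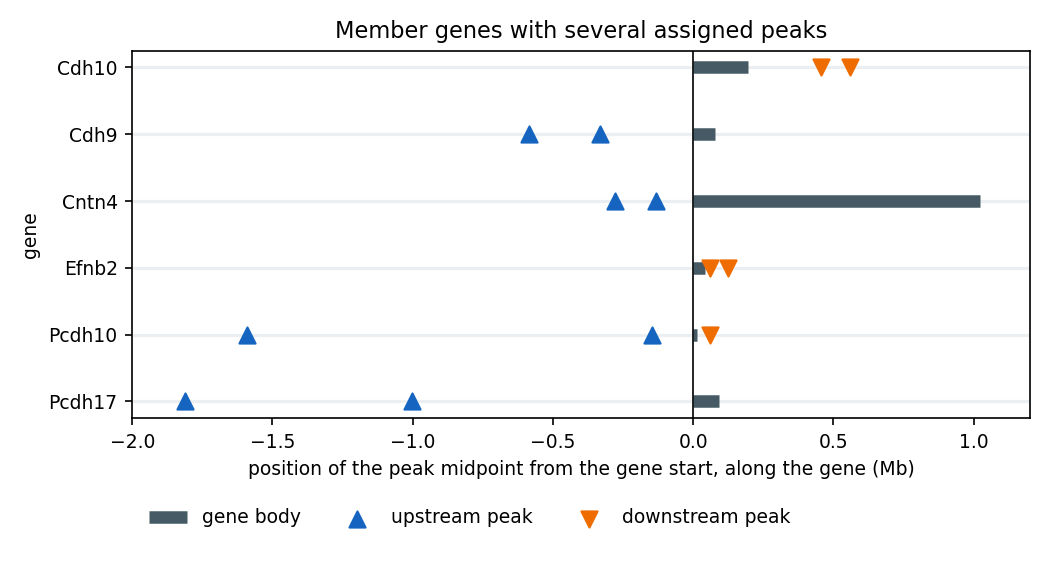
Midpoints of the 13 peaks of the 6 member genes with 2 or more peaks, in Mb from the gene start along the direction of the gene (negative is upstream), with dark bars for the deposited gene bodies. No peak lies on a bar; the 2 Pcdh17 peaks are upstream, from 1.00 to 1.81 Mb, and the 2 Cdh10 peaks downstream.

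In all, 6 member genes had 2 or more peaks: Pcdh10 with 3, and Cdh9, Cdh10, Cntn4, Efnb2 and Pcdh17 with 2 each. They are 6 of 304 family genes (1.97%), against 0.818% of all protein-coding genes. Among the genes with a peak the share with 2 or more was 6 of 32 (18.8%) here and 14.1% among the other assigned genes. None of these 13 peaks lay inside its gene. Neighbouring peaks of the same gene were from 60.3 kb (Efnb2) to 1443 kb (Pcdh10) apart.

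Among the synaptic adhesion genes, Cntn4, which encodes a contactin, had 2 upstream peaks on chromosome 6, 131 and 279 kb from its start (105495800 to 105496850 and 105347450 to 105349200, of 1051 and 1751 bp). Cntn5 had 1 peak inside, 329 kb from its start (chromosome 9, 9841600 to 9843300). Cntnap5a, a contactin-associated gene of the neurexin superfamily, had 1 inside, 202 kb from its start (chromosome 1, 117782850 to 117784850). Nrxn3, a presynaptic receptor gene and the longest of the member genes at 1.61 Mb, had a peak inside at 40.02 kb from its start (chromosome 12, 90001350 to 90002900). Each of these 3 genes with a peak inside is 511 kb or longer in the deposited coordinates.
The remaining synaptic gene was Lrrtm3, whose postsynaptic product binds neurexins. Its peak lay 536 kb upstream (chromosome 10, 64088750 to 64089850, 1101 bp). In the RefSeq table Lrrtm3 lies within the span of the catenin gene Ctnna3, which is 1.57 Mb long and had no assigned peak. Whether the peak lies in Ctnna3 was not determined, because positions of Ctnna3 in mm9 were not used here.

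Guidance ligands had 3 of their 7 peaks inside the gene. Sema4a, a transmembrane semaphorin gene, had a peak 10.8 kb from its start and 59.5% of the way along the gene (chromosome 3, 88246950 to 88248850). Sema5a, a transmembrane semaphorin gene with thrombospondin repeats, had 1 at 322 kb, 71.4% of the way along (chromosome 15, 32496450 to 32497750). Slit1, a secreted repellent cue, had 1 at 52.1 kb, 36.8% of the way along (chromosome 19, 41764800 to 41766100). These inner peaks were thus well past the start of each gene.
Sema4f had a peak 30.4 kb past its end (chromosome 6, 82830250 to 82831500). Efnb2, the transmembrane ephrin of arteries, had 2 peaks 17.1 and 79.6 kb past its end on chromosome 8 (8598400 to 8600600 and 8536450 to 8538100), the closest pair of peaks of any member gene. Efna5, a membrane-anchored ephrin that steers retinal axons, had 1 peak 129.9 kb upstream (chromosome 17, 63360400 to 63362400).

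Among the guidance receptors, Robo3, which commissural axons need to cross the midline, had a peak 20.5 kb upstream (chromosome 9, 37261200 to 37263500). The EphA receptors with a peak differed in where it lay. That of Epha2 was 26.2 kb upstream (chromosome 4, 140829800 to 140831000). That of Epha5 was inside, 117 kb from the start (chromosome 5, 84728300 to 84729700), and that of Epha3 was downstream, 137 kb past the end (chromosome 16, 63404950 to 63406750).

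The Lrrc genes are of mixed function. Lrrc4c, which encodes a postsynaptic ligand of netrin-G1, had a peak 27.2 kb past its deposited end (chromosome 2, 97499050 to 97500800). Lrrc7, the gene of the postsynaptic scaffold densin-180, had a peak 106 kb upstream (chromosome 3, 158330700 to 158331750). Lrrc8d, a subunit of the volume-regulated anion channel, had 1 at 15.8 kb upstream (chromosome 5, 106110950 to 106113150). Lrrc37a had 1 inside, 19.9 kb from the start (chromosome 11, 103344450 to 103346000), and Lrrc30 had 1 at 8.07 kb past its end (chromosome 17, 67970950 to 67972950).

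Nearest-start assignment can give a peak within a long gene to a neighbour, so the bodies of the 32 genes were also searched for peaks under any name. They held 12 peaks, the 10 listed as inside and 2 others. The first of these lay 273 kb into Cdh23, 69.3% of the way along (chromosome 10, 59885650 to 59887450, 1801 bp), and was listed under 4632428N05Rik. The second lay 223 kb into Nrxn3, 13.8% of the way along (chromosome 12, 90183550 to 90184800, 1251 bp), and was listed under ENSMUSG00000077853, a gene without a symbol. With these, Cdh23 and Nrxn3 each held 2 peaks in their bodies. Midpoints of the 12 peaks ranged from 0.448% (Cdh23) to 71.4% (Sema5a) of the gene length from the start. Family genes without an assigned peak could not be searched in this way, because the list gives no coordinates for them. Whether a peak lies in an exon or an intron was not determined.

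**Figure D5:**
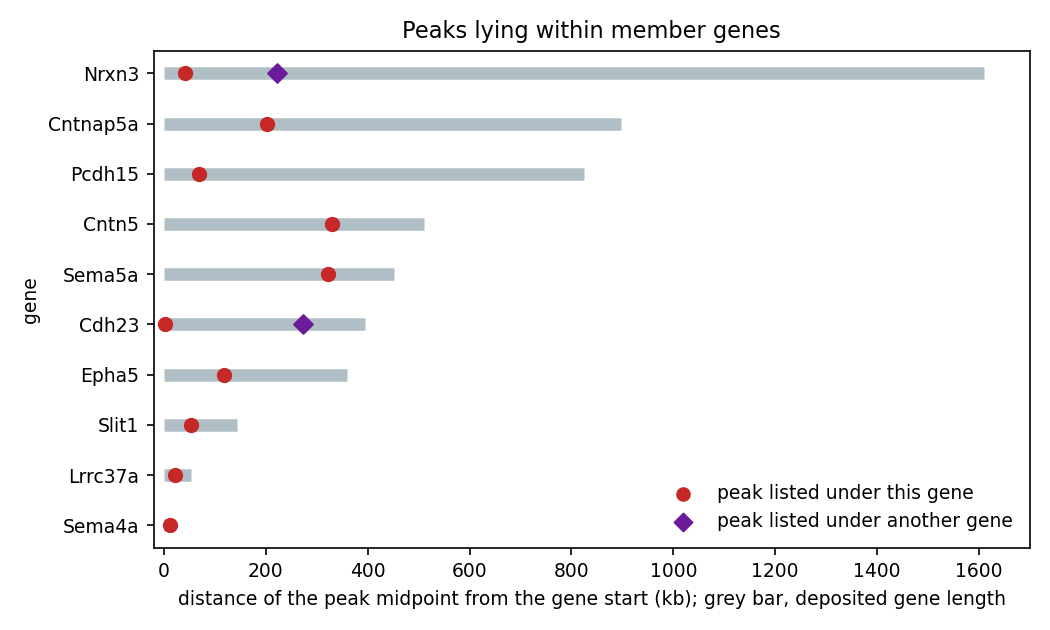
Midpoints of the 12 peaks lying within member genes, in kb from the gene start, on grey bars that show the deposited length of each gene; circles are peaks listed under the gene itself and diamonds peaks listed under another. The 2 diamonds lie at 273 kb in Cdh23 and 223 kb in Nrxn3.

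The gene models behind the list bear on these classes. For 25 of the 32 genes the deposited length and the RefSeq length agreed within 5%. For 6 genes the RefSeq gene was over 1.5 times as long: Lrrc4c (164 kb deposited, 1.31 Mb in RefSeq), Pcdh10 (14.8 and 56.2 kb), Cntn5 (511 kb and 1.27 Mb), Lrrc30 (0.903 and 1.76 kb), Pcdh15 (824 kb and 1.55 Mb) and Cdh9 (78.1 and 129 kb). The distances and classes given for these 6 genes refer to the shorter deposited models. They include the peaks listed downstream of Pcdh10 and of Lrrc4c. The Pcdh10 peak lay 58.8 kb from the deposited start, farther than the RefSeq length of 56.2 kb. The Lrrc4c peak lay 191 kb from the deposited start, less than the RefSeq length of 1.31 Mb. Where the RefSeq models begin and end in mm9 was not determined.

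The single-symbol rule left out 5 peaks whose entries give a family symbol first and another symbol after it. Entries with a family symbol in a later place were not searched for. Ntn1, the gene of the guidance cue netrin-1, had a peak 10.7 kb upstream (2351 bp, wider than any of the 39), and Plxnc1 had 1 at 9.54 kb upstream. Sema3a and Sema3d, neighbouring genes for secreted semaphorins on chromosome 5, had upstream peaks at 73.4 and 269 kb. Cdh22 had a peak inside, 31.0 kb from its start.

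Other adhesion and guidance genes were drawn from a list of 63 names that the prefixes do not hold. Peaks were assigned to 7 of the 63 (11.1%, Wilson interval 5.49 to 21.2%), beside 5.76% of all protein-coding genes. The 63 genes had a median RefSeq length of 147 kb, and 6 of the 37 that are 100 kb or longer had a peak (13.4% of all genes of that length). Opcml, which encodes a membrane-anchored adhesion protein of neurons, had 3 peaks, all inside and from 522 to 755 kb from the start. Tenm3, a teneurin gene listed as Odz3, had 2 inside, at 90.1 and 93.9 kb. Sdk1, the gene of the synaptic adhesion protein sidekick-1, had 2 upstream peaks at 84.1 and 112 kb. Its relative Sdk2 had 1 inside at 9.12 kb.
Nrp2, which encodes a semaphorin co-receptor, had a peak 0.709 kb upstream of its start. Negr1 had a peak 366 kb upstream, and Nectin1, listed as Pvrl1, had 1 on the downstream side at 92.1 kb. The peaks of these 7 genes numbered 11, of which 6 were inside the gene, 4 upstream and 1 downstream, with a median distance of 93.9 kb.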

How the data were processed

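Chromatin immunoprecipitation and sequencing was done on E14 cells with 2 libraries, macroH2A1 and IgG. The authors deposited 1 peak list; per the submitters' processing notes reads were mapped with Bowtie to NCBIM37 (mm9). Per the file headers the columns give peak position and width in bp, the nearest gene and the distance to its start. Peak names begin with CCAT, a peak caller. Caller settings, control and filters were not given in the sources used here. Header names lie 1 field to the left of their values. Widths and signed distances followed from the coordinates in all 2560 rows. Of these, 891 had no symbol, 1557 had a single symbol, 111 had several and 1 had a date in place of a symbol. In 5 rows, none at a member gene, the list held a closer gene start than the assigned one.

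Distances were recomputed as the gap between the gene start and the closest base of the peak. Symbols or synonyms were matched on the same chromosome to the RefSeq table of GRCm38.p6 (1245 of 1311 entries to 1 protein-coding gene), used for names, neighbours and lengths, with promoter sequences from RefSeq. Shares have 95% Wilson intervals and medians exact order-statistic intervals, which cover counting error over peaks or genes only. Each sample's depth is unknown. Scripts used Python 3.11.15, pandas 2.3.3 and scipy 1.17.1, and geometry, matching and intervals were tested on simulated data. The rule for naming genes asked for those with several peaks or a peak inside or within 5 kb. It also asked for the nearest and farthest peak of each family, and the 5 widest peaks and longest genes. The text goes beyond that rule and names all 32 member genes. The members and lists were chosen with earlier results of these data known.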

Additional observations from a re-analysis of the deposited data

How the results depend on the processing

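Of 57 alternative values for 10 results, 50 stayed within the interval of the reported value, or within 1.5 times a count. The median distance (87.0 to 135 kb over 9 alternatives), the share upstream (45.0 to 52.3% over 6), the median gene length (93.5 to 151 kb over 6) and the peaks within gene bodies (11 to 12 over 3) did so in each alternative run for them. The exceptions were these. With only peaks wider than the median of the whole list, there were 20 peaks at 18 genes, 5.92% of family genes had a peak, 2 genes had 2 or more, and the median width was 1851 bp; fewer peaks enter here by construction. Among family genes of 100 kb or longer, a setting added after seeing the data, 16.1% had a peak, and of member peaks at genes of that length 42.1% were inside (36.9% of the other single-symbol peaks at such genes); the cause was not tested. Including entries of several symbols that begin with a family symbol was not an exception: it gave 44 peaks at 37 genes, which stayed within 1.5 times the counts. Some of the 50 values that stayed could not have moved. The member peaks held no identical regions, so counting identical regions once changed nothing by construction. No member peak overlapped a gene start or end, so judging its class by midpoint or by any overlap also changed nothing by construction. No paired analysis was possible because each antibody has 1 library. No depth or score per peak was used here, which limits the precision of every value to counting.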
